A study of Mus musculus with 6 samples.

Results

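The intercalated disc is the specialised end-to-end contact between heart muscle cells, and 10 of its genes were followed here in the pressure-loaded left ventricle of the mouse. They are the rows of the deposited table, 10 of 24602, whose gene name is 1 of a fixed set: the connexins Gja1, Gja5 and Gjc1, the desmosome genes Dsp, Pkp2, Dsg2, Dsc2 and Jup, and the adherens junction genes Cdh2 and Ctnna3. Each name matched 1 row. RNA came from the left ventricle of wild-type mice, 5 weeks after a sham operation (3 libraries) or after surgery for transverse aortic coarctation, TAC (3 libraries). TAC narrows the aortic arch, so that the left ventricle pumps against a higher pressure. The labels name no strain, sex or age. They also do not say that each library came from its own mouse, so the p-values cover the spread among libraries alone, and that spread may be technical.

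Gap junctions, desmosomes and adherens junctions meet in the disc. Gap junctions are channels built of connexins through which current passes from cell to cell. Desmosomes tie the desmin filaments of neighbouring cells together through cadherins (desmogleins and desmocollins), the armadillo proteins plakoglobin and plakophilin, and desmoplakin. Adherens junctions anchor the contractile actin through N-cadherin and the catenins. In heart muscle desmosomes and adherens junctions mix in an area composita, inherited defects of desmosome genes cause arrhythmogenic cardiomyopathy, and loss or displacement of connexin 43 is a well-known feature of failing hearts.

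The deposited table gives FPKM, which is scaled for transcript length and sequencing depth, and an estimated count per gene. The 6 libraries held 64023153 to 69992502 estimated counts each. Levels are given below in FPKM, which can be compared between genes, and differences between groups in CPM, counts scaled to depth with TMM factors, with edgeR's quasi-likelihood test. A gene was tested where its mean FPKM over the 6 libraries was 1 or more (8795 genes) and called at a Benjamini-Hochberg adjusted p under 0.05, which held for 6.99% of tested genes (4.71% higher in TAC, 2.29% lower). The split of calls moved with the scaling, from 414 higher and 201 lower to 157 and 188 with library totals only, 555 and 164 with upper-quartile factors, and 174 and 338 for limma on log2(FPKM + 1). The last scale shifted the median of all tested genes by -0.13 (log2) and library totals by -0.14, against -0.01 with TMM. After removal of the trends that GC content and transcript length showed in each library, the split was 243 and 219. The 10 ventricular cardiomyocyte markers summed to 28671 to 33127 FPKM in sham and 21238 to 27244 FPKM in TAC. These sums were carried by a few abundant genes, and in CPM none of the 10 was called. Their median log2 fold change was -0.07, against -0.01 for all tested genes, and 0.02 without TAC replicate 3. The epithelial markers, of other cells rich in desmosomes, summed to at most 0.15 FPKM in any library, with Cdh1 at 0 in all 6. In bulk tissue fewer cells of a type and less RNA per cell cannot be told apart.

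TAC replicate 3 stands apart from the other libraries. Its fibroblast markers, 6 genes, summed to 165 FPKM against 58.1 to 65.2 in the other TAC libraries and 45.4 to 62.8 in sham. Its transcripts also differed by length: the 20% of genes with the longest transcripts had a median deviation of 0.24 log2 units from the 6-library mean, against -0.07 and -0.17 in TAC replicates 1 and 2. Transcripts poor in G and C were higher in every TAC library, with median deviations of 0.22, 0.17 and 0.31 for the 20% of genes with the lowest GC content, against -0.10, -0.40 and -0.14 in sham. The mitochondrial share of the counts was also higher in every TAC library, at 22.6% to 29.2% against 14.8% to 19.2% in sham. Its part in the results was not tested beyond a fit without mitochondrial genes, in which no member was called.

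None of the 8 tested members was called, and no member was called in a fit of all genes without the filter, which takes in Dsc2 and Ctnna3 (background 1.20% of 23834 genes). Members Jup and Gja5 had an unadjusted p under 0.05, both lower in TAC, a state shared by 11.9% of tested genes. DESeq2 called 1 member, Jup, as lower, against a background of 7.02%. All but 1 of the members fall into 2 patterns. Jup and Gja5 had all 3 TAC libraries below all 3 sham libraries, as had 17.1% of tested genes. In Gja1, Gjc1, Dsp, Pkp2, Dsg2, Dsc2 and Cdh2 the groups overlapped, and 1 library, TAC replicate 3, held the highest value of the 6. Ctnna3 followed neither pattern.

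**Figure D1:**
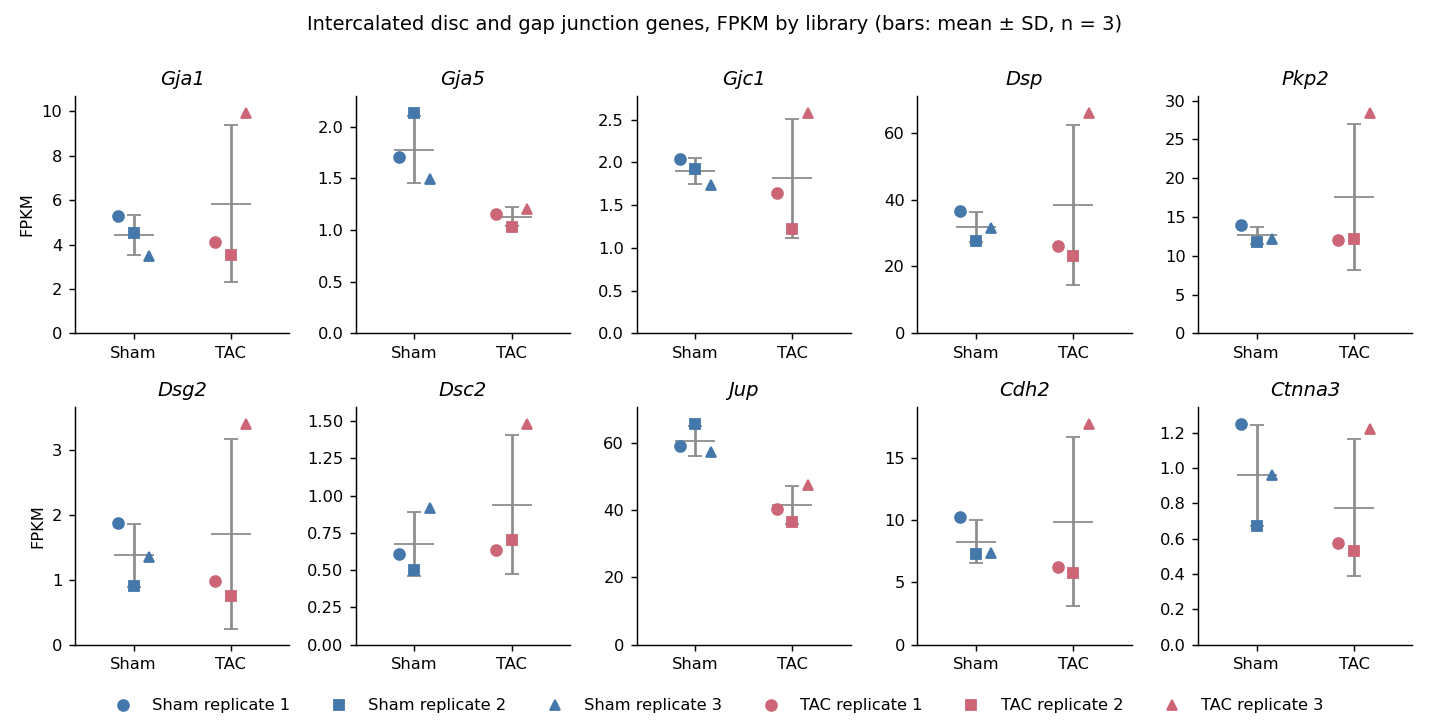
FPKM (linear axis from 0) of the 10 members in the 3 sham (blue) and 3 TAC (red) libraries. Symbols mark the replicate number, and grey bars give the mean ± SD. Jup and Gja5 lie lower in all TAC libraries, with Jup at 36.4 to 47.5 FPKM against 57.2 to 65.4 in sham. The triangle of TAC replicate 3 lies above all other libraries in 7 of the panels.

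Levels in sham spread over a wide range. Jup was highest at 60.5 ± 4.34 FPKM (SD, n = 3), followed by Dsp at 31.9 ± 4.52, Pkp2 at 12.6 ± 1.14, Cdh2 at 8.30 ± 1.70 and Gja1 at 4.44 ± 0.904 FPKM. The sham libraries of each of these 5 genes lay wholly above those of the next. Gjc1 (1.74 to 2.04 FPKM), Gja5 (1.78 ± 0.324), Dsg2 (1.38 ± 0.487), Ctnna3 (0.960 ± 0.287) and Dsc2 (0.675 ± 0.217) followed, and each overlapped its neighbour in this order. The cytoplasmic plaque genes Jup, Dsp and Pkp2 thus stood above the desmosomal cadherins Dsg2 and Dsc2 in all libraries. By its mean over all 6 libraries Jup stood above 92.3% of tested genes. In TAC, Jup measured 41.4 ± 5.64 FPKM and Dsp 38.3 ± 23.9 FPKM, and their ranges overlapped.

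Sequence just upstream of the RefSeq start is shown for a pair of connexins and a pair of desmosome genes, because within each pair 1 gene followed each of the 2 patterns: Gja1 and Dsp peaked in TAC replicate 3, while Gja5 and Jup were lower in all TAC libraries. RefSeq's promoter table (GRCm38.p6), read without the chromosome that carries Dsg2, Dsc2 and Cdh2, held 5 of the members. The 250 bases before the start are printed 5′ to 3′ on the gene's strand, for Gja1 at chr10:56377050-56377299 (plus strand), Gja5 at chr3:97032152-97032401 (plus), Dsp at chr13:38151044-38151293 (plus) and Jup at chr11:100397791-100398040 (minus). RefSeq's Gja5 start lies 127709 bases inside the deposited Gja5 record, so that this window is not upstream of the record as quantified, while the other 3 starts lie within 41 bases of the deposited ones. Capitals mark matches, on either strand, to any of 8 short motifs. These were the TATA box TATAAA (in 12.4% of all 32851 windows of this length), the CCAAT box (33.9%), the GC box GGGCGG (32.7%), a T-box site GGTGTG (16.3%), an NKX2-5 site CAAGTG (11.6%), a GATA site AGATAA (9.99%), an AP-1 site TGANTCA (6.75%) and a TEAD site CATTCC (12.6%). No match overlapped another.
Gja1: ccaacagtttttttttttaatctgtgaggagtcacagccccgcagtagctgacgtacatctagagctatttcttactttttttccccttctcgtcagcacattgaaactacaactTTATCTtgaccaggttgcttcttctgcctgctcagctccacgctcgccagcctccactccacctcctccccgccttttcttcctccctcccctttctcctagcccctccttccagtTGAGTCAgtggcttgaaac
Gja5: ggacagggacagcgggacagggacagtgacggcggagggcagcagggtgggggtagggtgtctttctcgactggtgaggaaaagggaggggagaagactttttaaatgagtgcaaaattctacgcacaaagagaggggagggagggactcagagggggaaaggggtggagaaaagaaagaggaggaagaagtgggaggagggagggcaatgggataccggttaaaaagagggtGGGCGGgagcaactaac
Dsp: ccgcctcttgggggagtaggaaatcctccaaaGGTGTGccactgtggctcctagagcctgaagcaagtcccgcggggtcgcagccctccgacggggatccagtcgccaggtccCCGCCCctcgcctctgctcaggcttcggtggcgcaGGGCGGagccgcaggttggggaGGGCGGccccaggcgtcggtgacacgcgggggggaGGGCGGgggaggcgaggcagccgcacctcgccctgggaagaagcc
Jup: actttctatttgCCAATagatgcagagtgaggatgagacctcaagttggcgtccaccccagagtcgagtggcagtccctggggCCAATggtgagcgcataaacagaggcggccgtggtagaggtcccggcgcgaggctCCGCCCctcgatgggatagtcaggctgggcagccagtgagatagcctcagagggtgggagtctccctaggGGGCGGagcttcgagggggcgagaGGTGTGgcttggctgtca
The Gja1 window held 1 AP-1 match, 19 to 13 bases before the start, and 1 GATA match. The Gja5 window held 1 GC box. The Dsp window held 4 GC boxes and 1 T-box match, and the Jup window 2 GC boxes, 2 CCAAT boxes and 1 T-box match. GC content was 50% for Gja1, 56.4% for Gja5, 72.4% for Dsp and 62% for Jup, against a median of 52.4% over all windows. A match is a run of letters, not a shown binding site.

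Among the connexins, Gja1 encodes connexin 43, the main gap junction protein of working ventricular muscle. It lies on chromosome 10 (56377330 to 56402513, GRCm38). Gja1 measured 5.30, 4.51 and 3.50 FPKM in sham and 4.09, 3.53 and 9.92 FPKM in TAC. The first 2 TAC libraries lie inside the sham range and the third lies above all others. Scaled as CPM it was 46.2 ± 9.75 in sham and 65.4 ± 34.0 in TAC (log2 fold change 0.50 ± 0.33, SE; 95% interval -0.26 to 1.26; edgeR adjusted p = 0.366). The log2 fold change of Gja1 was -0.01 without TAC replicate 3 and -0.03 with the trends over GC content and length removed. Its longest transcript has 42.2% G and C, below the 46.7% that bounds the 20% poorest tested genes.

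Gja5 encodes connexin 40, known from atrial muscle, the conduction system and arterial endothelium, and lies on chromosome 3 (96904693 to 97077416). It measured 1.70, 2.13 and 1.497 FPKM in sham and 1.15, 1.03 and 1.20 FPKM in TAC, so the groups did not overlap. In CPM these were 10.3 ± 1.63 and 7.29 ± 0.440 (log2 fold change -0.50 ± 0.18, 95% interval -0.92 to -0.09, edgeR adjusted p = 0.116). Gja5 did not pass in any of the fits run, and its log2 fold change lay between -0.63 and -0.36 over them.

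Markers of the cells that carry connexin 40 were read beside it. The 7 conduction system genes in the table summed to 7.90 to 12.7 FPKM in sham and 3.72 to 5.57 FPKM in TAC, with the T-type calcium channel gene Cacna1g, which was called (log2 fold change -1.15), and the pacemaker channel gene Hcn4 (-1.13, edgeR adjusted p = 0.0506) holding most of the sum. They were 2 of the 3 tested genes of this list, and Cacna1g was the 1 called. The other tested gene, Cntn2, had a log2 fold change of -0.67 (edgeR adjusted p = 0.187). Tbx3, under the filter, overlapped between groups, at 0.513 to 0.869 FPKM in sham and 0.535 to 0.671 FPKM in TAC. Shox2, a transcription factor of the sinus node, was at or near 0 in every library (at most 0.08 FPKM). The 8 arterial endothelial markers summed to 24.4 to 26.6 FPKM in sham and 23.5 to 25.4 FPKM in TAC. The atrial light chain gene Myl7 measured 11.5, 99.3 and 69.0 FPKM in sham and 60.7, 2.61 and 13.3 FPKM in TAC. Sham replicate 2 was highest and TAC replicate 2 lowest in both Myl7 and Gja5, while TAC replicate 1 was above sham replicate 1 in Myl7 and below it in Gja5. The 7 atrial markers did not move together. Myl4, Sln and Upk3b, like Myl7, were highest in sham replicate 2 and lowest in TAC replicate 2. Nppa, the atrial natriuretic peptide gene, was called higher in TAC (log2 fold change 1.54) and carried the sum of the list, 498 to 1193 FPKM in sham and 1312 to 2923 FPKM in TAC. The part of these cells in the level of Gja5 was not tested.

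Gjc1, connexin 45, a connexin of early heart and conduction tissue, measured 2.04, 1.92 and 1.74 FPKM in sham and 1.64, 1.22 and 2.57 FPKM in TAC. Its groups overlapped (log2 fold change 0.06 ± 0.24, 95% interval -0.48 to 0.60, edgeR adjusted p = 0.903), and the sign turned with the scaling, at -0.05 with library totals only and -0.07 for limma on log2(FPKM + 1). Of the summed FPKM of the 3 connexins, Gja1 made up 58.6%, 52.7% and 52.0% in sham and 59.4%, 61.1% and 72.4% in TAC, all TAC libraries above all sham libraries. The share of Gja5 was 18.8%, 24.9% and 22.2% in sham and 16.7%, 17.8% and 8.79% in TAC. These shares do not depend on how a library is scaled, but they move with the trends over GC content and length. With these removed, Gja1 made up 60.9%, 58.6% and 54.4% in sham and 55.7%, 58.0% and 70.0% in TAC, and the groups overlapped, as they did for Gja5.

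In the desmosome, Jup encodes plakoglobin, the armadillo protein that joins the desmosomal cadherins to desmoplakin and is also found in adherens junctions. It lies on chromosome 11 (100368958 to 100397749, minus strand). Jup measured 58.9, 65.4 and 57.2 FPKM in sham and 40.3, 36.4 and 47.5 FPKM in TAC. Every TAC library lies below every sham library, and TAC replicate 3 is the highest of the TAC libraries but not above sham. In CPM it went from 394 ± 18.9 to 298 ± 20.4 (log2 fold change -0.40 ± 0.13, 95% interval -0.70 to -0.11, edgeR adjusted p = 0.0879). Jup passed in DESeq2 (adjusted p = 0.0218), in limma with library quality weights (0.0145, where 14.2% of tested genes passed as lower) and in edgeR without TAC replicate 3 (0.0341, where 10.1% did). With the trends over GC content and length removed its log2 fold change was -0.18 ± 0.11 (edgeR adjusted p = 0.336). The transcript of Jup has 58.8% G and C, above the 56.6% that bounds the 20% richest. Its trend-corrected deviations from the mean were 0.11, 0.09 and 0.06 log2 units in sham and -0.07, -0.22 and 0.02 in TAC. All TAC values lay below all sham values for 2 members on this scale, Jup and Gja5, as for 16.6% of tested genes. In Pkp2 all TAC values lay above all sham values on it, but the share of tested genes apart in that direction was not counted.

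Dsp encodes desmoplakin, which links the desmosomal plaque to desmin filaments, and lies on chromosome 13 (38151294 to 38198577). It measured 36.6, 27.6 and 31.5 FPKM in sham and 26.2, 23.0 and 65.8 FPKM in TAC. TAC replicates 1 and 2 were the lowest 2 of the 6 libraries on this scale and TAC replicate 3 the highest. The log2 fold change of Dsp was 0.37 ± 0.33 (95% interval -0.39 to 1.13, edgeR adjusted p = 0.517) and -0.17 without TAC replicate 3. In CPM, TAC replicate 3 was 2.34-fold above the mean of the other TAC libraries. The longest transcript of Dsp has 9592 bases and 51.8% G and C. With the trends over GC content and length removed, the log2 fold change of Dsp was 0.35 ± 0.20 (edgeR adjusted p = 0.306).

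Pkp2 encodes plakophilin 2, the armadillo protein that clusters desmoplakin at the membrane, and lies on chromosome 16 (16213318 to 16248489). It measured 13.9, 11.8 and 12.1 FPKM in sham and 12.1, 12.2 and 28.4 FPKM in TAC. TAC replicates 1 and 2 lie within the sham range and TAC replicate 3 above it. In CPM, Pkp2 was 68.6 ± 7.66 in sham and 103 ± 46.1 in TAC (log2 fold change 0.59 ± 0.28, 95% interval -0.05 to 1.22, edgeR adjusted p = 0.213). Its log2 fold change was 0.15 without TAC replicate 3 and 0.54 with the trends removed (edgeR adjusted p = 0.190), and it kept its sign in every fit run. The trend-corrected deviations of Pkp2 were -0.14, -0.32 and -0.27 log2 units in sham and -0.06, -0.03 and 0.82 in TAC. On that scale its groups did not overlap, though TAC replicates 1 and 2 lay close to sham. The share of tested genes apart in this direction was not counted.

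The desmosomal cadherins were scarce. Dsg2, the desmoglein of heart muscle, lies on chromosome 18 (20558074 to 20604521) and measured 1.88, 0.908 and 1.35 FPKM in sham and 0.979, 0.757 and 3.40 FPKM in TAC. Its log2 fold change was 0.39 ± 0.51 (95% interval -0.76 to 1.55, edgeR adjusted p = 0.664), the widest interval of the tested members, and -0.47 without TAC replicate 3. That library was 3.43-fold above the mean of the other TAC libraries in CPM. Dsc2, the desmocollin of heart muscle, was under the filter, at 0.611, 0.499 and 0.917 FPKM in sham and 0.636, 0.703 and 1.48 FPKM in TAC. The fit without a filter gave it a log2 fold change of 0.48 ± 0.32 (95% interval -0.24 to 1.20, edgeR adjusted p = 0.427).

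In the adherens junction, Cdh2 encodes N-cadherin, the cell-cell adhesion molecule of heart muscle, and lies on chromosome 18 (16588877 to 16809246, minus strand). It measured 10.3, 7.28 and 7.35 FPKM in sham and 6.24, 5.76 and 17.7 FPKM in TAC. As with Dsp, TAC replicates 1 and 2 were lowest in FPKM and TAC replicate 3 highest. In CPM, sham replicate 2 (57.7) lay below TAC replicate 1 (59.0) for Cdh2. The log2 fold change of Cdh2 was 0.35 ± 0.37 (95% interval -0.49 to 1.20, edgeR adjusted p = 0.579) and -0.26 without TAC replicate 3. Ctnna3 encodes alpha-T-catenin, which ties plakophilin 2 to the actin-bound catenins in the area composita, and spans chromosome 10 from 63430098 to 65003667. It was under the filter, at 1.25, 0.675 and 0.958 FPKM in sham and 0.576, 0.531 and 1.22 FPKM in TAC. Its log2 fold change in the fit without a filter was -0.30 ± 0.31 (95% interval -0.999 to 0.39, edgeR adjusted p = 0.589). Its highest value was in sham replicate 1, closely followed by TAC replicate 3, which was 1.93-fold above the mean of the other TAC libraries in CPM.

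**Figure D2:**
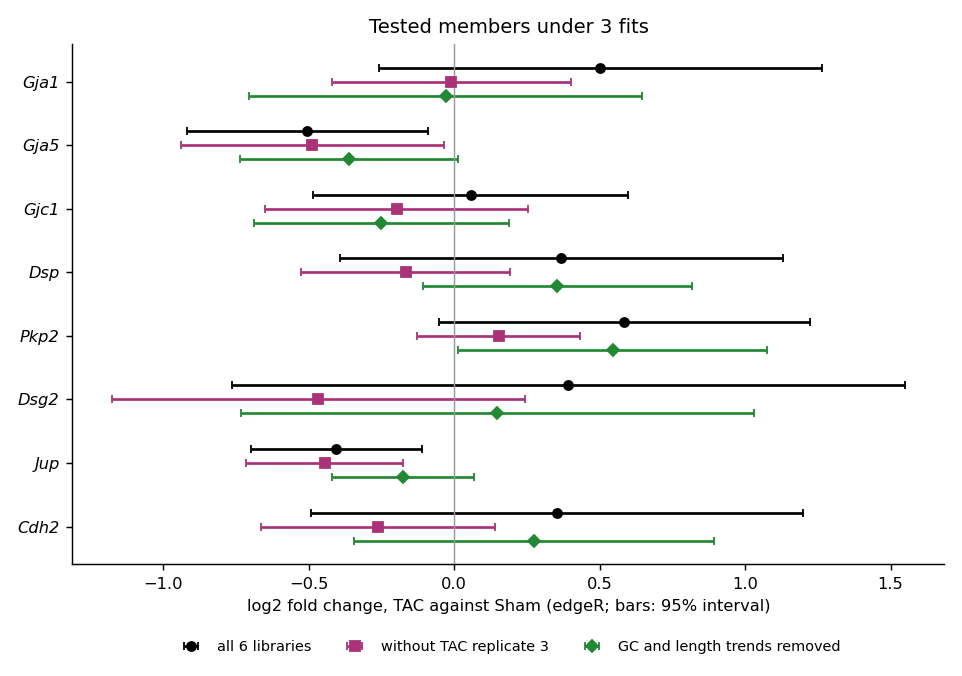
Log2 fold change of TAC against sham with its 95% interval (edgeR) for the 8 tested members, with all 6 libraries (black), without TAC replicate 3 (purple) and with GC and length trends removed (green). Gja1, Gjc1, Dsp, Dsg2 and Cdh2 pass to the other side of 0 without TAC replicate 3, whereas Jup stays at -0.44 and Gja5 at -0.49.

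The library that held the highest CPM was compared over all tested genes. TAC replicate 3 was the highest of the 6 libraries for 7 of the 10 members, 6 of them tested, against 28.1% of tested genes. With GC and length trends removed it was highest for 5 of the 8 tested members, Gja1, Dsp, Pkp2, Dsg2 and Cdh2, against 25.9%. This library was singled out after its values were seen, so the counts describe these 6 libraries. Sham replicate 1 was the next highest library for Gja1, Gjc1, Dsp, Pkp2, Dsg2 and Cdh2. TAC replicate 2 was the lowest library for 7 members, and for 20.4% of tested genes. Fibroblast markers were highest in the same library, at the sums given above, as were the macrophage markers, at 302 FPKM against 213 to 249 in all other libraries. The summed ventricular cardiomyocyte markers were lowest there, at 21238 FPKM, a sum carried by a few abundant genes, while 3 of the 10 markers had their highest CPM in this library. The part of cell makeup or of transcript length in the values of TAC replicate 3 was not tested beyond the removal of trends.

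**Figure D3:**
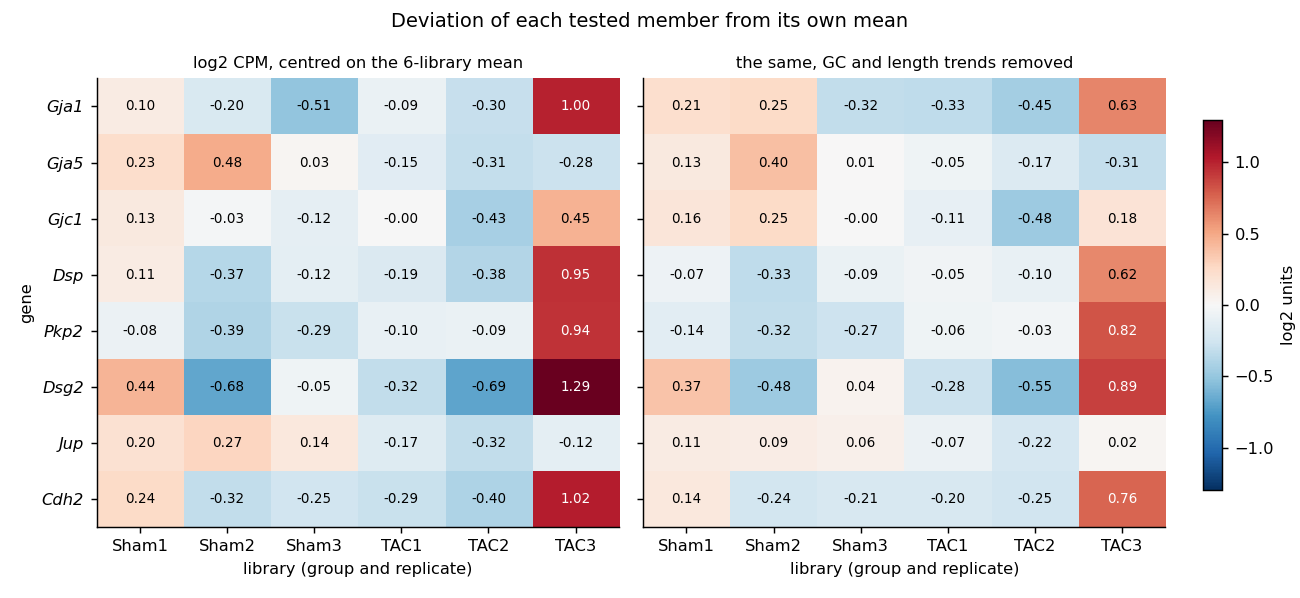
Deviation of log2 CPM from the 6-library mean of each tested member, by library, as deposited (left) and with GC and length trends taken out of each library (right). Red is above and blue below the mean. In TAC replicate 3, Gja1 stands at 0.997 on the left and 0.63 on the right, and Cdh2 at 1.02 and 0.76.

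Likeness between genes was read as the root mean square difference of log2 CPM, each gene centred on its own mean over the 6 libraries. From Dsp, the nearest of the other members were Cdh2 (0.09), Pkp2 (0.16) and Gja1 (0.18), with 3, 81 and 121 of all tested genes nearer. Gjc1 (0.26) and Dsg2 (0.27) followed, while Jup (0.52) and Gja5 (0.61) lay at or beyond the median of all tested genes, 0.52. Among the 4090 genes whose mean reached 5 FPKM and that have a proper symbol, the 3 nearest to Dsp were Kif13a (0.07), Cdh2 and Il6st (0.10). Those nearest to Cdh2 were Dsp, Abcc9 (0.11) and Bicd2 (0.12), and those nearest to Gja1 were Bicd2 (0.10), Mmp2 (0.11) and Prkar1a (0.13). Each of these genes was highest in TAC replicate 3, where Bicd2 stood 0.92 and Mmp2 1.15 log2 units above its mean. They were chosen for likeness to members that peak in that library, so this follows from the choice. Abcc9 was the only 1 of the 4 pericyte markers read here that was highest there.

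Ratios between junction genes within a library do not depend on its scaling, though they do move with trends over GC content and length. Of 8 ratios of FPKM, 4 had groups that did not overlap. These 4 share genes (Jup and Dsp), and the same count over other gene pairs was not made. For each of the 4, an exact 2-sided permutation test of 3 against 3 gave its smallest possible p of 0.1 (adjusted 0.2 over the 8). The design thus could not reach 0.05. Gja5 to Gja1 was 0.321, 0.472 and 0.428 in sham and 0.282, 0.292 and 0.121 in TAC. Jup to Dsp was 1.61, 2.37 and 1.82 in sham and 1.54, 1.58 and 0.722 in TAC, with plakoglobin mRNA above desmoplakin mRNA in all libraries but TAC replicate 3. Ctnnb1 to Jup, the 2 armadillo relatives beta-catenin and plakoglobin, was 0.206, 0.125 and 0.159 in sham and 0.291, 0.293 and 0.501 in TAC. Pkp2 to Dsp was 0.380, 0.428 and 0.386 in sham and 0.461, 0.530 and 0.431 in TAC, a narrow gap. The ratio of Gja1 to Cdh2 overlapped, at 0.476 to 0.620 in sham and 0.559 to 0.656 in TAC, as did Gjc1 to Gja1, Dsg2 to Dsc2 and Ctnna3 to Ctnna1.

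The set of separated ratios changed once the trends were removed, an alternative chosen after seeing the data that covers the 6 ratios whose genes were both tested. Of these, 3 were apart, of which Jup to Dsp and Ctnnb1 to Jup had also been apart as deposited. Jup to Dsp was then 1.69 to 2.03 in sham and 0.999 to 1.49 in TAC, and Ctnnb1 to Jup 0.144 to 0.205 and 0.286 to 0.413. Gja5 to Gja1 overlapped, at 0.278, 0.327 and 0.368 in sham and 0.356, 0.355 and 0.153 in TAC, and so did Pkp2 to Dsp, at 0.382 to 0.435 and 0.431 to 0.496. The ratio of Gja1 to Cdh2 had overlapped with a higher mean in TAC. It came apart in the other direction by a narrow gap, at 0.528 to 0.798 in sham and 0.496 to 0.523 in TAC.

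**Figure D4:**
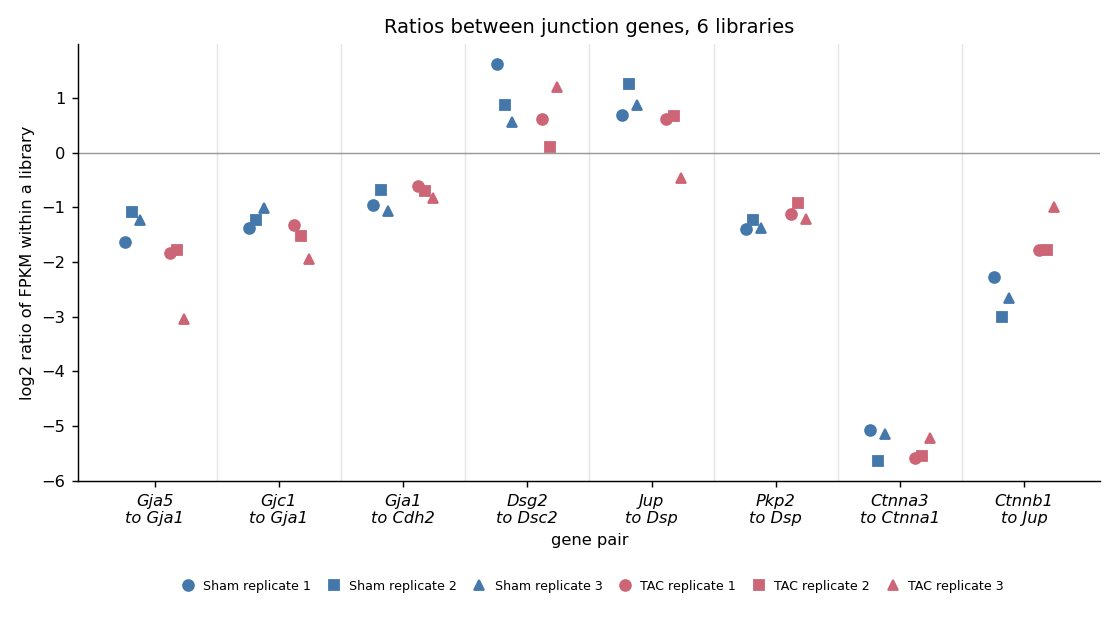
Log2 ratio of FPKM for 8 gene pairs in each library (blue sham, red TAC, symbols for replicate numbers). As deposited, groups are apart for Gja5 to Gja1, Jup to Dsp, Pkp2 to Dsp and Ctnnb1 to Jup (Gja5 to Gja1 and Pkp2 to Dsp overlap with trends removed), and TAC replicate 3 lies farthest from sham in all of these but Pkp2 to Dsp.

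The other genes of the same structures were read from the same fit, in 9 lists of 127 genes, of which 115 were in the table and 65 were tested. Of these, 4 were higher and 2 lower in TAC and the rest did not pass, so that 9.23% were called against 6.99% of all tested genes. Neither Gja3 nor Gja4, the tested ones of 20 other connexins and pannexins, passed (log2 fold changes of -0.26 and -0.08). Gja4, connexin 37 of arterial endothelium and also in the arterial list above, measured 14.4 ± 0.837 and 13.6 ± 2.25 CPM.

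Of 16 other adherens junction and area composita genes, Afdn rose and Nectin2 fell, and 14 did not pass (median log2 fold change -0.05, against -0.01 for all tested genes). Afdn, which encodes afadin, the actin linker of nectins, stood at 14.5 ± 0.966 CPM in sham and 23.6 ± 1.88 CPM in TAC, a log2 fold change of 0.70 ± 0.15 (edgeR adjusted p = 0.0350). Nectin2, an adhesion molecule that binds afadin, went from 64.1 ± 4.79 to 38.8 ± 6.43 CPM (-0.72 ± 0.16, edgeR adjusted p = 0.0376). Both calls rest on having all libraries: they held without TAC replicate 3 and were lost without any 1 of the other 5 (adjusted p of 0.0592 to 0.131 for Afdn and 0.0592 to 0.150 for Nectin2). They were also lost with the replicate block (0.0787 and 0.0703) and with GC and length trends removed (0.0704 and 0.0610). The Afdn call was lost as well with library totals only (0.0830), limma on log2 FPKM (0.115 to 0.116), no filter (0.0869) and filterByExpr (0.0566). Ctnnb1, the beta-catenin gene, measured 51.7 ± 12.1 and 87.8 ± 34.1 CPM (0.76 ± 0.28, edgeR adjusted p = 0.118). It is outside the rule for named genes and is given because a ratio above rests on it.

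Of 12 disc-associated muscle proteins, 3 rose and 9 did not pass (median 0.30). They were Xirp2 (2.09 ± 0.17), an actin-binding repeat protein of the disc, Sorbs2 (1.45 ± 0.31), an adaptor protein, and Fhl1 (1.06 ± 0.23), a LIM-domain protein, with edgeR adjusted p of 0.00227, 0.0352 and 0.0370. Sorbs2 measured 0.72 with the trends removed (edgeR adjusted p = 0.0857), and the TAC libraries of Fhl1 spread from 11.2 to 24.2 FPKM, the highest in TAC replicate 3. Xirp2 passed without each library in turn, whereas Fhl1 passed only without TAC replicate 3 (0.0592 to 0.161 without any 1 of the others) and Sorbs2 was lost without sham replicate 2 (0.157), sham replicate 3 (0.110) or TAC replicate 1 (0.0745). None of 4 other desmosome and filament linker genes passed (median 0.38). Des, the desmin gene, to whose filaments desmosomes attach, measured 4228 ± 670 and 5923 ± 828 CPM (0.49 ± 0.18, edgeR adjusted p = 0.131), and Perp, a desmosomal membrane protein, had 0.53 ± 0.20.

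Of 7 disc ion channel and anchor genes none passed (median 0.36). Cav3, caveolin 3 of the muscle cell membrane, had a mean CPM of 103 ± 15.4 under sham and of 67.9 ± 17.1 under TAC (log2 fold change -0.60 ± 0.21, edgeR adjusted p = 0.104).

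Of 9 transcription factors of connexin genes, Hopx, a homeodomain-only cofactor, fell from 94.6 ± 4.90 to 66.1 ± 3.90 CPM (-0.52 ± 0.12, edgeR adjusted p = 0.0451) and 8 did not pass (median -0.29). An antisense record covers 27.2% of the exonic bases of Hopx, and with the strand setting unknown their reads cannot be told apart. The Hopx call was lost with upper-quartile factors (0.0558), library totals only (0.0550), the replicate block (0.104), no filter (0.0567), a mean FPKM of 5 or more (0.0900), and without any 1 library other than TAC replicate 3 (0.102 to 0.173). None passed among 8 kinases and phosphatases that act on connexins (median 0.06), with Ppp1ca at -0.35 and Mapk3 at 0.07, the latter turning sign with the scaling (-0.07 with library totals only). The same held for 5 sheddases and proteases of junction proteins (median 0.50), with Mmp2 at 0.50 ± 0.39 and Adam15 at 0.37 ± 0.21, and for 2 tested beta-catenin targets, Ccnd1 (0.67 ± 0.23) and Myc (1.41 ± 0.42). Records on the other strand cover 20.6% of the exonic bases of Adam15 and 23.4% of those of Ccnd1. Without TAC replicate 3 the median of the proteases was 0.17 and Mmp2 stood at -0.15. Adam15 (0.59, edgeR adjusted p = 0.0118) and Ccnd1 (0.81, edgeR adjusted p = 0.0321) then passed. In that fit 813 of 8795 tested genes passed as higher and 892 as lower. In either direction, 20 of the 65 other junction genes passed, beside 1705 of the 8795 tested genes. The list medians without that library were -0.33 for other connexins, 0.27 for other desmosome genes, -0.27 for other adherens genes, 0.21 for disc muscle proteins, 0.26 for channels and anchors, -0.03 for kinases and phosphatases, -0.46 for transcription factors and 0.95 for beta-catenin targets.

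**Figure D5:**
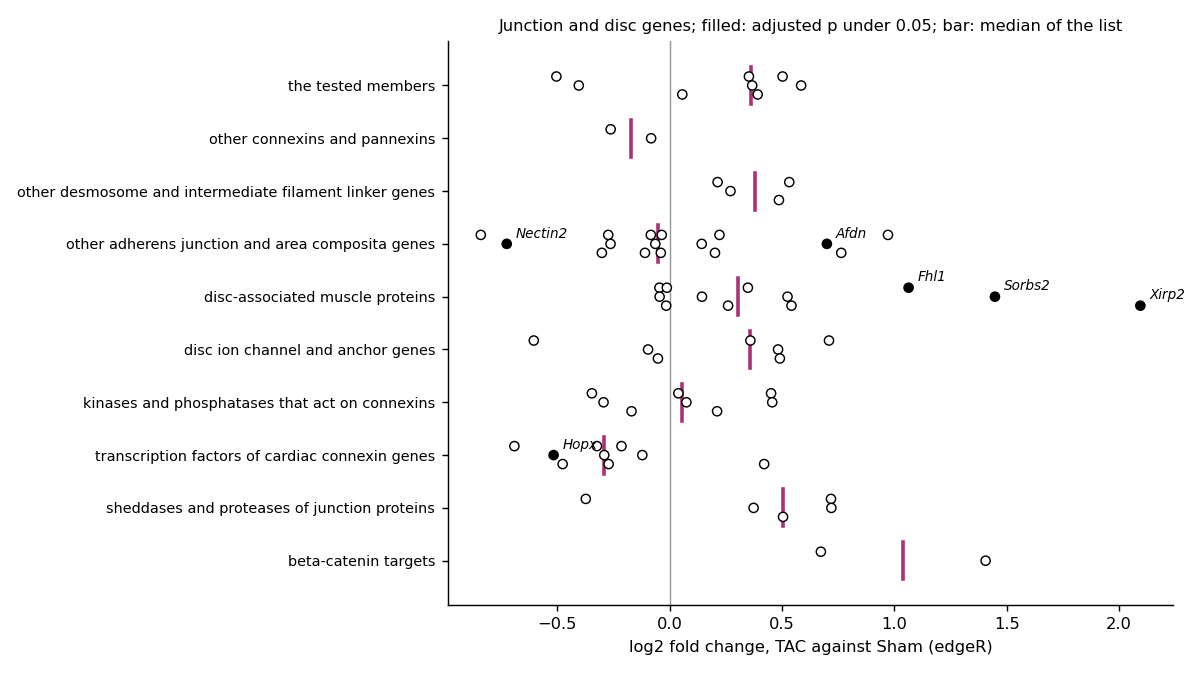
Log2 fold change of TAC against sham (edgeR) for the tested members and the tested genes of 9 lists of other junction and disc genes; each point is a gene, filled where the adjusted p was under 0.05, and the bar is the median of its row. The 6 filled points are Nectin2, Afdn, Fhl1, Sorbs2, Xirp2 and Hopx, and no member is filled.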

How the data were processed

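Poly(A) RNA from left ventricle was sequenced in 6 libraries. The submitters' processing notes list GRCm38, StringTie 1.3.4d, HISAT2 2.0.4 and cutadapt 1.9. In the sources used here, annotation release, filters and strand setting are not given. The authors deposited FPKM and, treated here as estimated counts, whole numbers whose making is not stated. A gene needed a mean of 1 FPKM to be tested; the test was edgeR 4.0.16 (TMM, glmQLFit, glmQLFTest; R 4.3.3), adjusted over all tested genes; an SE is the log2 fold change over the root of F. Alternatives were DESeq2 1.42.0, limma 3.58.1, other scalings and filters, the replicate number as a block, offsets removing trends over GC content and transcript length (GENCODE M21; lowess span 0.3, 3 rounds), and leaving out each library. Fits were tested on simulated data. Each member was named, and from each list up to 4 called genes with the lowest adjusted p, or else the 2 with the highest FPKM; for Gja1, Dsp and Cdh2 the 3 nearest genes. Members and lists were chosen with earlier results of these data known. Protein sequences were not used here, and 1 gene that the rule names is not reported here.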

Additional observations from a re-analysis of the deposited data

How the results depend on the processing

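The count of members called was 0 in edgeR and in every alternative but 3: DESeq2, library quality weights and the fit without TAC replicate 3 each called 1, Jup (range 0 to 1 over the fits without 1 library). Jup, Gja5 and Pkp2 kept their sign throughout. The counts rest on single libraries: over all tested genes 615 were called with all libraries, and between 12 (without sham replicate 2) and 1705 (without TAC replicate 3) without 1. For the other junction genes the count was 6, and between 1 and 20 without 1 library. All genes and the other junction genes gave 345 and 2 calls with library totals only, 1648 and 18 in DESeq2, 285 and 1 with no filter, 211 and 3 at a mean FPKM of 5 or more, and 2595 and 31 with library quality weights. Limma called 3 other junction genes at each pseudocount (1, 0.5 and 0.1).

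Same-numbered libraries did not deviate together (correlations of -0.10, 0.14 and -0.06; 2 of 6 libraries correlated best with their own number). With the replicate block 183 genes and 2 other junction genes were called, with no member, and 174 genes with the block and the trends removed together.

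Of the 8 ratios 4 had groups apart, and 4 to 6 without 1 library. Groups that are apart stay apart when a library is left out, so this count could not fall below 4. It is no check of the 4 ratios. With the trends removed 3 of 6 were apart.

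Some log2 fold changes turned sign. Gjc1 was -0.046 with library totals only, -0.071, -0.12 and -0.093 in limma at pseudocounts of 1, 0.1 and 0.5, -0.052 with no filter, -0.051 with filterByExpr, -0.072 with quality weights, -0.25 with the trends removed and -0.27 with the block as well. Gja1 was -0.030 with the trends removed and -0.10 with the block as well. With quality weights Dsp was -0.057, Dsg2 -0.23, Cdh2 -0.14, Mmp2 -0.028 and Gja4 0.065. Gja4 was 0.065 with the trends removed and 0.063 with the block as well. Mapk3 was -0.067 with library totals only, -0.082, -0.084 and -0.083 in limma at those pseudocounts, -0.026 with no filter and -0.020 with filterByExpr. Over the fits without 1 library, log2 fold changes ranged from -0.0098 to 0.74 for Gja1, -0.20 to 0.25 for Gjc1, -0.17 to 0.60 for Dsp, -0.47 to 0.72 for Dsg2 and -0.26 to 0.60 for Cdh2. They ranged from -0.69 to 0.0094 for Gja3, -0.20 to 0.038 for Gja4, -0.0017 to 0.21 for Mapk3 and -0.15 to 0.75 for Mmp2. The causes were not tested.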
